A study of Mus musculus with 7 samples.

Results

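Expression of 10 genes at the gate from G1 into S phase was examined in mouse skin papillomas with and without induced *Nanog*. The set joins the p53 axis (*Trp53*, *Mdm2* and *Cdkn1a*), the cyclin-dependent kinase (CDK) inhibitors *Cdkn1b*, *Cdkn2a* and *Cdkn2b*, the G1 cyclins *Ccnd1*, *Ccnd2* and *Ccne1*, and the retinoblastoma gene *Rb1*. The genes were chosen for their place in the pathway, and all 10 were found among the 23284 gene symbols listed in the data. The rule that chose them uses no measured value, although earlier results of these data were known when they were chosen.

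RNA from 7 papillomas, each from a different C57Bl/6 mouse, was sequenced. The 4 CTR mice carried the tetO-*Nanog* allele, a doxycycline-responsive *Nanog* cassette placed downstream of *Col1a1*, without a transactivator. The 3 TG mice carried the same allele together with K5-rtTA, in which the bovine keratin 5 promoter drives the reverse tetracycline transactivator in the basal layer of stratified epithelia. Mice of both genotypes, adult littermates matched for age, received DMBA and TPA on the back skin, the mutagen and the tumor promoter of chemical skin carcinogenesis, and doxycycline at 2 mg/ml in the drinking water. Papillomas were collected when the protocol ended or when a humane endpoint was reached. Which of these applies to a given mouse, and its age in days at collection, are not given in the sources used here. The paper gives a range of ages in weeks for the start of the protocol. A papilloma was sequenced whole, so a lower value can come from fewer cells of a type or from less RNA per cell, and these cannot be told apart.

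Values are gene-level FPKM, fragment counts scaled for transcript length and for the size of the library. The reads on genes implied by the width of the deposited confidence intervals ranged from 10075778 to 15710864 for a papilloma. *Nanog* itself stood at 53.7 ± 15.3 FPKM in TG (SD, n = 3) and at 5.41 ± 4.90 FPKM in CTR (SD, n = 4), with groups that did not overlap. The papilloma TG 3 stood apart in cell type markers. Its summed fibroblast markers reached 677.9 FPKM, against 73.5 to 128.6 FPKM over the CTR papillomas and 88.9 and 86.3 FPKM in TG 1 and TG 2. Its skeletal muscle markers summed to 516.1 FPKM against at most 4.25 FPKM elsewhere, and its suprabasal keratinocyte markers to 785 FPKM. The summed suprabasal markers also separated the other TG papillomas from CTR, at 6261 FPKM in TG 1 and 7398 FPKM in TG 2 against 2355 to 3412 FPKM in CTR. *Krt1*, *Krt10*, *Ivl* and *Dsg1a* each did so. *Lor* did not, at 1329 and 690 FPKM against 618 to 1555 FPKM in CTR. In TG 3, *Krt1*, *Krt10* and *Lor* lay below every CTR papilloma and *Dsg1a* inside the CTR range. *Ivl* lay above that range in TG 3, at 36.4 FPKM. Basal keratinocyte markers were high in every papilloma, from 6574 to 12915 FPKM. The summed leukocyte markers were highest in TG 3, at 43.9 FPKM against 19.96 to 24.98 FPKM elsewhere. *Ptprc*, *Itgam* and *Csf1r* were each clearly highest there. *Cd68*, at 18.2 FPKM in TG 3, lay inside the CTR range of 15.4 to 20.6 FPKM, and *Cd3e* was 0.51 FPKM in both TG 3 and CTR 2. The part of these differences in the values of the 10 genes was not tested.

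A cell leaves G1 when CDKs held by D cyclins and then by cyclin E phosphorylate the retinoblastoma protein, which releases E2F transcription factors and opens the S phase program. The INK4 inhibitors of the *Cdkn2a* and *Cdkn2b* locus block the kinases of D cyclins, and the Cip/Kip inhibitors p21 (*Cdkn1a*) and p27 (*Cdkn1b*) act on cyclin-CDK complexes more broadly. The tumor suppressor p53 raises p21 and also *Mdm2*, the ubiquitin ligase that degrades p53, and p19Arf from *Cdkn2a* holds MDM2 back. In DMBA/TPA papillomas the initiating lesion is usually an activating *Hras* mutation, and loss of p53 or of the *Cdkn2a* locus belongs to later steps toward carcinoma.

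In textbook accounts *Cdkn1a* and *Mdm2* are targets of p53 and *Ccne1* is a target of E2F. Windows before their transcript starts are printed here as a description, and no comparison of expression below uses them. Each window is the 250 bases before a RefSeq transcript start on GRCm38.p6, written 5′ to 3′ on the strand of the gene. They are chr17:29090729-29090978 on the plus strand for *Cdkn1a*, chr10:117710759-117711008 on the minus strand for *Mdm2* and chr7:38107491-38107740 on the minus strand for *Ccne1*. Capitals mark matches to the p53 half-site on either strand.
Cdkn1a: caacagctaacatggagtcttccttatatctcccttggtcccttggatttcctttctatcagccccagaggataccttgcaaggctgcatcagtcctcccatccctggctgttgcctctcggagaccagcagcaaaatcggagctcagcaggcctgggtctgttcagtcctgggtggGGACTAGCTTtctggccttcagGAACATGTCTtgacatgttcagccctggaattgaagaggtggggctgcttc
Mdm2: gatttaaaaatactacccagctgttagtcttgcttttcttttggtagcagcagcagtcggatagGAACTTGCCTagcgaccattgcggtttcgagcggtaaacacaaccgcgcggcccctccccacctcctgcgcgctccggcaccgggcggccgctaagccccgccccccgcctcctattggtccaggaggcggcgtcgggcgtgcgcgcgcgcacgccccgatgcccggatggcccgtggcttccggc
Ccne1: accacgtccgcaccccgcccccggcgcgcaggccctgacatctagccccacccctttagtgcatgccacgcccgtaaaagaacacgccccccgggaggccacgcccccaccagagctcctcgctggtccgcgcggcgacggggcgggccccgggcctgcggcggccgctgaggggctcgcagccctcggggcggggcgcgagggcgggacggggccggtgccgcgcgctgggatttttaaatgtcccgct

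The printed *Cdkn1a* window held 2 such matches, and the window of its second start, 2790 bases downstream, held 0. The one that begins 51 bases before the start is followed by 10 bases of which 9 match the same pattern, while the one at 73 bases is followed by 3 of 10. In *Mdm2* the match begins 186 bases before the start and is followed by 5 of 10 matching bases. The *Trp53* window held 1 match as well, 75 bases before its start. Among all 32851 promoters searched, 7.13% held at least 1 match, and the E2F letters TTTCGCG and TTTGGCG, searched on both strands, were held by 0.703% and 1.26%. Neither of the E2F words occurred in the *Ccne1* window or in the other 8 windows found for *Trp53*, *Mdm2*, *Cdkn1a*, *Cdkn1b*, *Cdkn2a* and *Cdkn2b*. A match describes these letters only.

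The 10 genes were then compared between TG and CTR papillomas, which addresses whether induced *Nanog* accompanies other RNA levels of these genes. RNA levels do not measure the activity of CDKs or the phosphorylation of the retinoblastoma protein. None of the 10 differed between the groups at an adjusted p under 0.05 with limma and Benjamini-Hochberg adjustment over 12299 tested genes, as none of the tested genes did (0.0%). *Nanog* itself had a log2 difference of 3.45 and an adjusted p of 0.400 in the same limma fit. The threshold thus missed a change of that size. The paper, which used Cufflinks for its comparison, reported genes higher in TG, *Nanog* among them. With sample quality weights 85 tested genes passed, and 17 did without TG 3, but none of the 10. At an unadjusted limma p under 0.05, 1 of the 10 was higher in TG, *Cdkn2b*, where 4.86% of tested genes were, and 0 of the 10 were lower, where 1.96% were. In 0 of the 10 did the groups fail to overlap, against 4.93% of tested genes that lay wholly higher and 2.23% wholly lower in TG. The mean log2 level was higher in TG for 8 of the 10 and lower for *Trp53* and *Ccnd1*, while 60.0% of tested genes were higher and 40.0% lower. Scaling moved that background but not the signs of the 10 genes, with 49.7% of tested genes lower after upper-quartile scaling and 55.1% after quantile normalization. Counts at an unadjusted p under 0.05 likewise went from 598 higher and 241 lower to 515 and 418 with upper-quartile scaling and to 403 and 551 with quantile normalization. The median log2 difference, TG minus CTR, was 0.12 over the 10 genes and 0.06 over all tested genes.

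**Figure D1:**
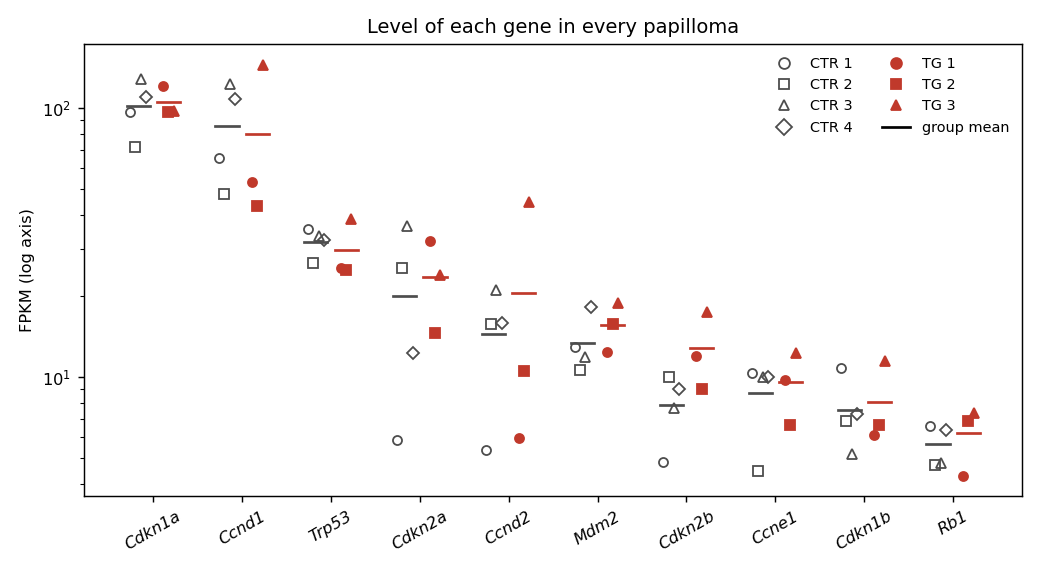
FPKM of the 10 genes in each of the 4 CTR and 3 TG papillomas on a log axis, with the mean of each group. The groups overlap in every gene, and TG 3 is the highest papilloma for 8 of the 10.

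*Trp53*, the gene of p53 (GRCm38 chromosome 11, 69580359 to 69591873, plus strand), was present at 35.4, 26.5, 33.5 and 32.3 FPKM in CTR 1 to 4, and at 25.5, 24.97 and 38.7 FPKM in TG 1 to 3. TG 1 and TG 2 lay below every CTR papilloma and TG 3 above all of them, so the groups overlapped. The log2 difference was -0.12 (SE 0.20, 95% interval -0.57 to 0.33, adjusted p = 0.953 with limma and Benjamini-Hochberg adjustment), and an exact permutation test over the 35 splits of the papillomas gave a 2-sided p of 0.543. With sample quality weights the difference was -0.33 (unadjusted p = 0.0415, adjusted p = 0.238 with limma). Without TG 3 it was -0.32, still not past the threshold. In that comparison of 2 TG with 4 CTR papillomas, *Trp53* alone of the 10 genes lay wholly lower in TG. This share, 10%, is near the 8.97% of tested genes that lay wholly lower. The Cufflinks 95% interval of CTR 2, 24.4 to 28.6 FPKM, overlapped those of TG 1 (23.9 to 27.2 FPKM) and TG 2 (22.9 to 27.0 FPKM).

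*Mdm2* (chromosome 10, 117688905 to 117710716, minus strand) had 12.97, 10.7, 11.8 and 18.3 FPKM in the CTR papillomas and 12.4, 15.7 and 18.8 FPKM in TG. The CTR papillomas other than CTR 4 lay within 10.7 to 12.97 FPKM, and each TG papilloma set against each CTR papilloma gave the higher value in 9 of 12 pairs. The log2 difference of 0.22 (SE 0.22, interval -0.29 to 0.72) had an adjusted p of 0.910 with limma and an exact permutation p of 0.400.

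*Cdkn1a*, which encodes the p53-induced inhibitor p21 (chromosome 17, 29090986 to 29100722, plus strand), was the most abundant of the 10 genes, at 97.1, 71.5, 128.3 and 109.8 FPKM in CTR and 120.7, 96.8 and 97.4 FPKM in TG. All 3 TG values lay inside the CTR range. TG minus CTR came to 0.07 on the log2 scale (SE 0.22, interval -0.43 to 0.57, adjusted p = 0.985 with limma, exact permutation p = 0.829), an interval that reaches from 0.741-fold to 1.49-fold. Its sign turned without CTR 2 and without TG 1. An unnamed transcript, AC167363.2, overlaps *Cdkn1a* on the other strand, and whether the counting used the strand of the reads is not stated.

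Within each papilloma, the p53 targets were set against *Trp53*, a ratio that does not depend on scaling between libraries. The *Mdm2* to *Trp53* ratio of FPKM was 0.366, 0.402, 0.353 and 0.567 in CTR and 0.484, 0.629 and 0.485 in TG. Only CTR 4 reached the TG values. The mean log2 ratio was -1.24 ± 0.30 in CTR (SD, n = 4) and -0.90 ± 0.21 in TG (SD, n = 3), a difference of 0.34 with an exact permutation p of 0.171, which kept its sign without each papilloma in turn, from 0.22 to 0.49.

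The *Cdkn1a* to *Trp53* ratio was 2.74, 2.69, 3.83 and 3.403 in CTR and 4.73, 3.88 and 2.52 in TG, so TG held both the highest values and the lowest. The log2 difference was 0.19 with an exact permutation p of 0.543. These were 2 of 5 ratios compared, of which 0 had an exact permutation p under 0.05, the smallest being that of *Mdm2* to *Trp53*.

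**Figure D2:**
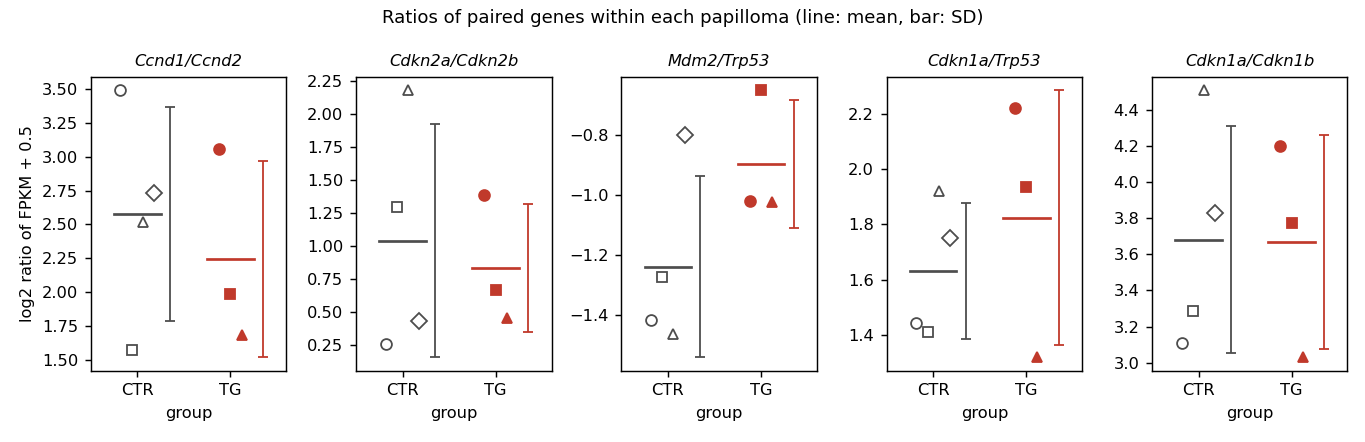
Log2 of 5 within-papilloma ratios of FPKM in the 4 CTR and 3 TG papillomas, with group means. For *Mdm2* to *Trp53*, CTR 4 alone among the CTR papillomas reaches the TG values, and the groups overlap in each ratio.

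*Cdkn1b*, the gene of p27 (chromosome 6, 134920401 to 134925525, plus strand), had 10.8, 6.89, 5.17 and 7.28 FPKM in CTR and 6.10, 6.63 and 11.5 FPKM in TG. CTR 1 and TG 3 were high and the other 5 papillomas lay between 5.17 and 7.28 FPKM. The log2 difference was 0.09 (SE 0.28, interval -0.56 to 0.73, adjusted p = 0.985 with limma, exact permutation p = 0.800), and its sign turned without CTR 3 and without TG 3.

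The ratio of p21 to p27 transcripts in a papilloma was 8.996, 10.4, 24.8 and 15.1 in CTR and 19.8, 14.6 and 8.48 in TG. Its mean log2 value was 3.68 ± 0.63 in CTR (SD, n = 4) and 3.67 ± 0.59 in TG (SD, n = 3), with an exact permutation p of 1. *Cdkn1a* was the more abundant of this pair in every papilloma.

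*Cdkn2a* and *Cdkn2b* lie next to each other on chromosome 4, with 11669 bases between the loci. *Cdkn2a* (89274473 to 89294619, minus strand) encodes p19Arf from the upstream start and p16Ink4a from a start 12427 bases further downstream, and its gene-level FPKM does not separate the products. *Cdkn2b* (89306289 to 89311032, minus strand) encodes p15Ink4b, an inhibitor of the kinases of D cyclins that is induced by TGF-β.

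*Cdkn2a* stood at 5.85, 25.4, 36.6 and 12.3 FPKM in CTR and at 32.1, 14.6 and 24.0 FPKM in TG. CTR papillomas differed among themselves by 6.25-fold, and the TG values lay inside their range. In all 6 pairs of CTR papillomas the Cufflinks 95% intervals, which describe a single library, stayed apart, as they did in all 3 pairs of TG papillomas. The log2 difference between the groups was 0.46 (SE 0.56, interval -0.81 to 1.72, adjusted p = 0.928 with limma, exact permutation p = 0.600), and without CTR 1 it was -0.01.

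*Cdkn2b* had 4.83, 10.01, 7.69 and 9.04 FPKM in CTR and 11.99, 9.03 and 17.4 FPKM in TG. TG 1 and TG 3 lay above all CTR papillomas, whereas TG 2 lay below CTR 2 and CTR 4, and the TG value was the higher in 10 of 12 pairs. The log2 difference of 0.66 (SE 0.29, interval 0.01 to 1.31) was the largest of the 10 genes. It had an unadjusted p of 0.0474 and an adjusted p of 0.729 with limma, and an exact permutation p of 0.143, where the smallest possible was 0.0286. The difference stayed positive without each papilloma in turn, from 0.42 without TG 3 to 0.88 without TG 2. Its unadjusted limma p was 0.05 or more in 12 of 20 alternatives, among them upper-quartile scaling (0.0682), quantile normalization (0.0705) and sample quality weights (0.188, with a log2 difference of 0.32).

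The *Cdkn2a* to *Cdkn2b* ratio was 1.21, 2.53, 4.76 and 1.36 in CTR and 2.68, 1.62 and 1.38 in TG, above 1 in every papilloma. Its log2 difference was -0.21 (exact permutation p = 0.800) and its sign turned without CTR 3, at 0.17.

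**Figure D3:**
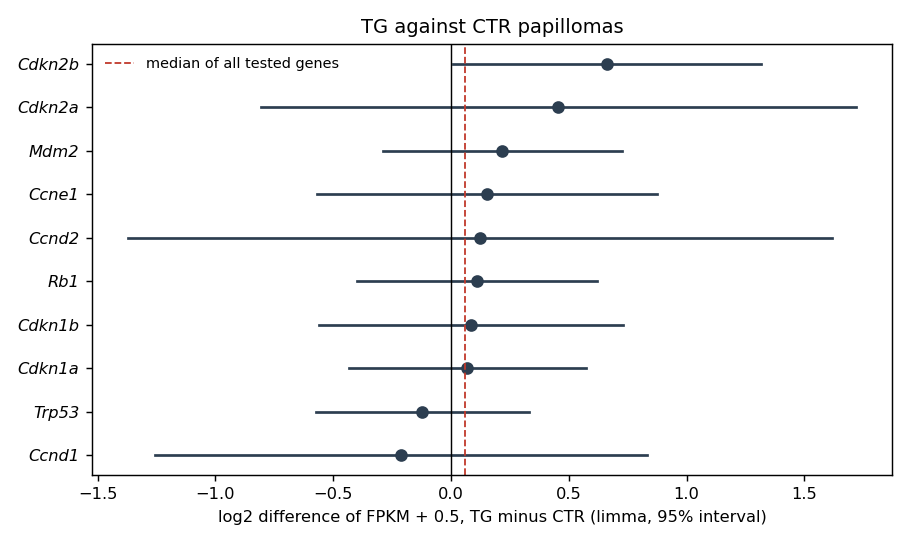
Log2 difference TG minus CTR of each of the 10 genes with its 95% interval from limma, ordered by size, with the median of all tested genes as a line. The interval of *Cdkn2b* alone lies above 0, from 0.01 to 1.31, and those of *Ccnd2*, *Cdkn2a* and *Ccnd1* are the widest.

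*Ccnd1*, which encodes cyclin D1, the cyclin induced by Ras signalling (chromosome 7, 144929931 to 144939925, minus strand), had 65.3, 47.8, 122.9 and 108.6 FPKM in CTR and 52.996, 43.2 and 145.3 FPKM in TG. TG 2 was the lowest and TG 3 the highest of all papillomas, a 3.36-fold span inside the TG group. Between the groups the log2 difference was -0.21 (SE 0.46, interval -1.26 to 0.83, adjusted p = 0.968 with limma, exact permutation p = 0.743). It was -0.74 without TG 3 and 0.13 without TG 2, neither of them past the threshold. With sample quality weights it was -0.95 (unadjusted p = 0.0152, adjusted p = 0.157 with limma).

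*Ccnd2*, the gene of cyclin D2 (chromosome 6, 127125709 to 127151048, minus strand), had 5.36, 15.8, 21.0 and 15.95 FPKM in CTR and 5.92, 10.6 and 44.9 FPKM in TG. It had the widest span of the 10 genes, 8.39-fold over the 7 papillomas, with CTR 1 and TG 1 low and TG 3 alone above the CTR range. The log2 difference was 0.12 (SE 0.66, interval -1.37 to 1.62, adjusted p = 0.989 with limma, exact permutation p = 0.943), and -0.69 without TG 3. The summed fibroblast markers were likewise highest in TG 3, as given above, and their part in the *Ccnd2* value was not tested.

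*Ccnd1* exceeded *Ccnd2* in every papilloma, by 12.2, 3.03, 5.85 and 6.81 in CTR and by 8.96, 4.09 and 3.23 in TG as a ratio of FPKM. The mean log2 ratio was 2.58 ± 0.79 in CTR (SD, n = 4) and 2.24 ± 0.72 in TG (SD, n = 3), a difference of -0.34 with an exact permutation p of 0.571. It ranged from -0.75 without TG 1 to -0.03 without CTR 1.

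*Ccne1*, the gene of cyclin E1 (chromosome 7, 38097984 to 38107490, minus strand), had 10.4, 4.48, 10.02 and 10.04 FPKM in CTR and 9.77, 6.62 and 12.3 FPKM in TG. CTR 2 stood alone below the other CTR papillomas, and TG 2 was the next lowest. CTR 2 and TG 2 also had the lowest sums of 5 cycling-cell markers, 67.7 and 67.9 FPKM, against 155.7 FPKM in CTR 1, and the part of cycling cells in the *Ccne1* values was not tested. Its log2 difference was 0.15 (SE 0.32, interval -0.57 to 0.88, adjusted p = 0.968 with limma, exact permutation p = 0.714), and its sign turned without CTR 2 and without TG 3.

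*Rb1* (chromosome 14, 73195502 to 73325791, minus strand), whose product holds E2F in check, had 6.603, 4.71, 4.80 and 6.37 FPKM in CTR and 4.30, 6.89 and 7.37 FPKM in TG. It spanned 1.71-fold over the 7 papillomas, and TG held both the lowest value and the highest. For *Rb1* the log2 difference was 0.11 (SE 0.23, interval -0.40 to 0.62, adjusted p = 0.967 with limma, exact permutation p = 0.657). *Lpar6* and *Rcbtb2* overlap the *Rb1* locus on the other strand, as LTO1 does for *Ccnd1* and Gm43126 and 9330179D12Rik do for *Ccnd2*.

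Among the 10 genes the order of the mean level over the 7 papillomas was *Cdkn1a* at 103.1 ± 18.7 FPKM, *Ccnd1* at 83.7 ± 41.1, *Trp53* at 31.0 ± 5.38, *Cdkn2a* at 21.5 ± 11.1, *Ccnd2* at 17.1 ± 13.5, *Mdm2* at 14.4 ± 3.24, *Cdkn2b* at 9.998 ± 3.93, *Ccne1* at 9.08 ± 2.63, *Cdkn1b* at 7.77 ± 2.41 and *Rb1* at 5.86 ± 1.23 (mean ± SD, n = 7). *Ccnd1* and *Trp53* were the only neighbours whose ranges did not overlap. *Mdm2* exceeded *Cdkn2b* in all 7 papillomas although their ranges overlapped, and every other neighbouring pair changed order in at least 1 papilloma. *Cdkn1a* lay at the 96.4th percentile of tested genes by mean FPKM and *Rb1* at the 50.1st percentile.

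The spread between papillomas of one genotype, each from a different mouse, was set against the Cufflinks intervals of single libraries. The SD within groups on the log2 scale had a median of 0.44 over the 10 genes and 0.31 over all tested genes, and 8 of the 10 lay above the latter. *Ccnd2* lay at the 97.8th percentile of tested genes, *Cdkn2a* at the 96.6th and *Ccnd1* at the 94.0th, while *Trp53* lay at the 37.9th. For *Ccnd1*, with 3242 to 11785 implied reads, the half-width of the Cufflinks interval was at most 3.51% of the value, and the intervals stayed apart in all 6 CTR pairs and all 3 TG pairs. For *Cdkn2a*, with 95 to 728 implied reads, the half-width reached 20.6%.

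**Figure D4:**
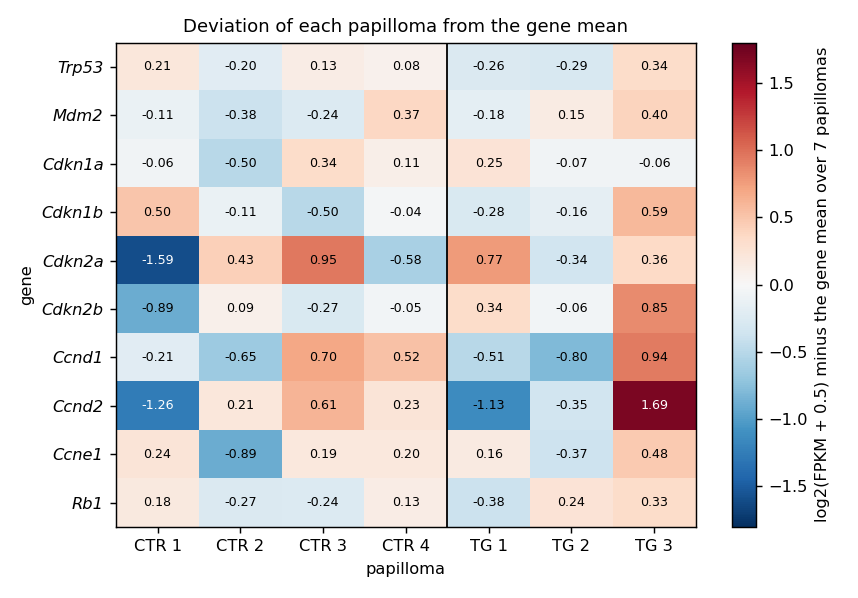
Log2 deviation of each of the 10 genes from its own mean over the 7 papillomas, as colour from low to high, with papillomas in columns. TG 3 is the highest papilloma for every gene except *Cdkn1a* and *Cdkn2a*, and *Ccnd2* has the widest span.

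TG 3 was the highest papilloma for 8 of the 10 genes, against 41.1% of all tested genes. The exceptions were *Cdkn1a*, highest in CTR 3, and *Cdkn2a*, also highest in CTR 3. CTR 2 was the lowest papilloma for *Mdm2*, *Cdkn1a* and *Ccne1*, and CTR 1 for *Cdkn2a*, *Cdkn2b* and *Ccnd2*. The marker values of TG 3 stand above, and their part in this pattern was not tested.

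By Pearson correlation of log2 FPKM over the 7 papillomas, the gene most like each member among 12289 other tested genes was *B230208H17Rik* for *Trp53* (r = 0.989), *Slc25a17* for *Mdm2* (0.993), *Ankrd39* for *Cdkn1a* (0.960), *Ppp2r3c* for *Cdkn1b* (0.985) and *Adat2* for *Cdkn2a* (0.982). For the others it was *Cd52* for *Cdkn2b* (r = 0.986), *Sclt1* for *Ccnd1* (0.982), *Klhl26* for *Ccnd2* (0.997), *Csnk1d* for *Ccne1* (0.991) and *Abi1* for *Rb1* (0.997). These are the highest of many correlations over 7 points that share libraries and depth, and they describe these papillomas only. *Cd52*, a leukocyte surface antigen, ran from 4.59 to 27.5 FPKM.

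The rest of the pathway was described with 7 lists of genes, by counts and medians beside those of all tested genes. At an adjusted p under 0.05 with limma and Benjamini-Hochberg adjustment, 0 genes passed in any list. At an unadjusted p under 0.05, 2 of the 84 tested genes in the lists passed, *Ccna2* and *Tk1*, both lower in TG. That is 2.38% lower and 0% higher, where 1.96% of all tested genes passed lower and 4.86% higher, so the share lower is near the background.

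The G1 cyclins act on genes of DNA replication through E2F. Of 15 S phase targets of E2F, 14 had a lower mean log2 level in TG, where 40.0% of all tested genes did, with a median difference of -0.18 against 0.06 over all genes. These genes were measured in the same papillomas, so their signs are not independent. Groups did not overlap in 3 of the 15, *Tk1*, *Rrm2* and *Cdt1*, all lower in TG, where 2.23% of tested genes lay wholly lower. In each alternative setting, and without each papilloma in turn, most genes of the list stayed lower in TG, at the least 11 of 15.

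*Tk1*, the thymidine kinase of the salvage pathway, had 31.1, 25.9, 34.5 and 26.4 FPKM in CTR and 24.3, 14.3 and 18.0 FPKM in TG. Every TG papilloma lay below every CTR papilloma. Its log2 difference was -0.65 (SE 0.21), with an adjusted p of 0.653 in limma and an exact permutation p of 0.0286, the smallest that 35 splits allow. The most abundant genes of the list, *Pcna* (the sliding clamp of DNA polymerase) and *Rrm1* (a subunit of ribonucleotide reductase), had log2 differences of -0.27 and -0.18, with adjusted p = 0.826 and 0.955 in limma.

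The sum of the 5 cycling-cell markers was 83.2, 67.9 and 89.0 FPKM in TG 1 to 3, inside the CTR range of 67.7 to 155.7 FPKM. The median log2 deviation of the 15 S phase genes from their own means had an SD of 0.24 within groups. It was 0.34, -0.27, 0.09 and 0.26 in CTR 1 to 4 and -0.13, -0.28 and 0.06 in TG 1 to 3. CTR 2, low in cycling-cell markers, thus stood with TG 2 at the low end, and the part of cycling cells in this list was not tested. The part of suprabasal cells, whose summed markers were high in TG 1 and TG 2, was not tested either.

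Of 9 other cyclins and CDKs, 6 had a lower mean log2 level in TG, and the median difference was -0.28. *Ccna2*, the gene of cyclin A2, which acts in S phase and at the entry into mitosis, had 25.03, 19.03, 17.4 and 21.6 FPKM in CTR and 15.5, 12.3 and 16.7 FPKM in TG. All TG values lay below all CTR values, and the log2 difference was -0.47 (SE 0.18, adjusted p = 0.702 in limma, exact permutation p = 0.0571). *Cdk4*, the kinase partner of D cyclins, had a mean of 85.1 FPKM over the 7 papillomas and a log2 difference of -0.28 (adjusted p = 0.842 in limma), and *Ccnb1*, a mitotic cyclin, one of -0.45 (adjusted p = 0.773 in limma).

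**Figure D5:**
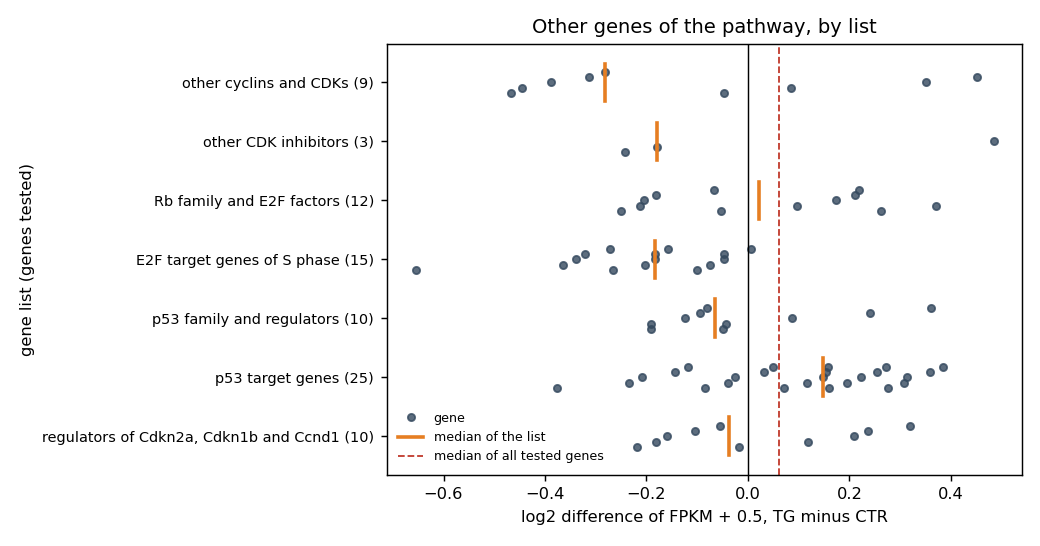
Log2 difference TG minus CTR of each tested gene in 7 pathway lists, with the median of each list and of all tested genes. In the S phase list 14 of 15 genes lie below 0, and its median is -0.18.

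The 12 retinoblastoma family and E2F genes were balanced, with 6 higher and 6 lower in mean log2 level and a median difference of 0.02. *Tfdp1*, an E2F dimerization partner, and *E2f4* were the most abundant, with log2 differences of -0.25 and 0.22 (adjusted p = 0.861 for each in limma). Among the 3 other CDK inhibitors, *Cdkn2c* and *Cdkn2d*, the INK4 genes of p18 and p19Ink4d, had log2 differences of -0.18 and 0.48 (adjusted p = 0.912 and 0.826 in limma).

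Of 26 target genes of p53, 25 passed the filter on low values and *Gdf15* did not. Their mean log2 level was higher in TG for 17 and lower for 8, with a median difference of 0.15 against 0.06 over all tested genes. Without TG 3 the median was -0.14, with 14 of 25 lower, where the median over all genes was -0.03. *Perp* and *Sfn*, p53 targets that stratified epithelia express at high level, had means of 1642 and 1026 FPKM and log2 differences of 0.16 and -0.02 (adjusted p = 0.953 and 0.995 in limma).

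The 10 genes of the p53 family and its regulators had 3 higher and 7 lower mean log2 levels and a median difference of -0.06. This turned to 7 higher and 3 lower without TG 1 (median 0.07) and with papillomas of lower depth only (median 0.05). *Trp63*, the p53 relative that maintains basal keratinocytes, had a mean of 42.5 FPKM over the 7 papillomas and a log2 difference of 0.09 (adjusted p = 0.979 in limma), and *Usp7*, a deubiquitinase of MDM2 and p53, one of -0.08 (adjusted p = 0.968 in limma). Of 10 regulators of *Cdkn2a*, *Cdkn1b* and *Ccnd1*, 4 were higher and 6 lower, with a median difference of -0.04. The count turned to 7 higher and 3 lower without TG 2 (median 0.07). It was 6 higher and 4 lower without TG 1 (median 0.10) and with papillomas of lower depth only (median 0.09). *Hras1*, the symbol under which the files list *Hras*, had 49.1, 32.01, 65.3 and 50.4 FPKM in CTR and 53.2, 35.6 and 41.0 FPKM in TG, with a log2 difference of -0.16, and *Cks1b*, a cofactor in the degradation of p27, one of -0.10 (adjusted p = 0.953 and 0.965 in limma).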

How the data were processed

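Papillomas of 4 CTR and 3 TG mice were sequenced with single reads. The authors aligned them to GRCm38/mm10 with TopHat2 2.0.4, Bowtie 0.12.7 and SAMtools 0.1.16 and deposited gene FPKM values from Cufflinks 1.3.0, with an interval and a status for each library. Reads were stranded, and whether Cufflinks used the strand is not given in the sources used here. Entries of a symbol were summed, and symbols with the status FAIL in any file (162) were left out. *Hras* was matched as *Hras1* through a RefSeq synonym.

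limma 3.58.1 in R 4.3.3 was fitted on log2(FPKM + 0.5) with a variance trend, for the 12299 genes whose mean FPKM was 0.5 or more, with Benjamini-Hochberg adjustment and a threshold of 0.05. Fold changes on this scale understate the change of low genes. Single genes and ratios were also compared by an exact 2-sided permutation test over 35 splits, computed with Python 3.11.15, numpy 2.4.6, scipy 1.17.1 and pandas 2.3.3. Figures were drawn with matplotlib 3.10.9. The fit was tested on simulated data. Depth was inferred from the Cufflinks intervals, so the reads are implied and not counted. These intervals describe a single library and do not cover the spread between mice.

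The 10 genes, the 7 lists and the markers were chosen with earlier results of these data known. From each list the text names the genes with the smallest limma p, at most 4 with an unadjusted p under 0.05, and the 2 with the highest mean FPKM, and for each of the 10 genes the gene most like it. *Rrm2* and *Cdt1* were named after their values were seen. Alternatives were pseudocounts of 0.1 and 1, no filter on low values or a higher one (2 FPKM), scaling to the upper quartile or by quantiles, limma with robust moderation or with no trend, quality weights for samples, a replicate block, the highest entry for a symbol, values of every status, papillomas of lower depth only, and each papilloma left out in turn. Promoter windows came from RefSeq (GRCm38.p6), in which 7 of the 10 genes had an entry and *Ccnd1*, *Ccnd2* and *Rb1* none.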

Additional observations from a re-analysis of the deposited data

Results flagged for a closer look

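*Ccne1* in CTR 2, at 4.48 FPKM, lay far from the other CTR papillomas, which held 10.02 to 10.4 FPKM. The gap to the nearest of them was 0.942 of the range of the group. *Nanog* in CTR 3, at 12.7 FPKM, lay far above the other CTR papillomas, with a gap of 0.936 of the range, although CTR mice lack the transactivator. Chance alone marks about 1 in 20 groups in this way, and the causes were not tested.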

How the results depend on the processing

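The count of genes past the adjusted threshold was 0 in the report and 85 with sample quality weights (49 higher, 36 lower in TG), 1 with papillomas of lower depth only, and between 0 and 17 when a papilloma was left out, the 17 being without TG 3. At an unadjusted limma p under 0.05 the counts were 598 higher and 241 lower in the report, 954 and 315 without a filter, 1161 and 1248 with quality weights, 515 and 418 with upper-quartile scaling and 403 and 551 with quantile normalization. They ranged from 364 to 824 higher and from 121 to 522 lower without each papilloma in turn.

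Of 200 values of the 10 genes under alternatives, 16 had the opposite sign and 0 passed the adjusted threshold. With quality weights the log2 difference changed sign to -0.10 for *Cdkn1a*, -0.054 for *Cdkn1b*, -0.37 for *Ccnd2* and -0.33 for *Ccne1*. Without a change of sign it was -0.95 for *Ccnd1*, -0.33 for *Trp53* and 0.32 for *Cdkn2b*. For *Rb1* it was 0.16, and for *Mdm2* and *Cdkn2a* 0.095 each, also with the sign kept. With papillomas of lower depth only it was 0.18 for *Ccnd1*. Without each papilloma in turn it ranged from -0.088 to 0.19 for *Cdkn1a*, -0.18 to 0.26 for *Cdkn1b*, -0.0095 to 0.84 for *Cdkn2a*, -0.74 to 0.13 for *Ccnd1*, -0.69 to 0.73 for *Ccnd2*, -0.12 to 0.38 for *Ccne1* and -0.024 to 0.33 for *Rb1*. *Trp53*, *Mdm2* and *Cdkn2b* kept their sign in every alternative. The differences in log2 ratio ranged from -0.48 to 0.17 for *Cdkn2a* to *Cdkn2b*, -0.0051 to 0.44 for *Cdkn1a* to *Trp53*, -0.28 to 0.30 for *Cdkn1a* to *Cdkn1b* and -0.75 to -0.03 for *Ccnd1* to *Ccnd2*.

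Without each papilloma in turn the median log2 difference ranged from -0.32 to -0.10 for other cyclins and CDKs, -0.30 to 0.21 for other CDK inhibitors, -0.14 to 0.33 for p53 targets and -0.14 to 0.07 for the p53 family and its regulators. For the regulators of *Cdkn2a*, *Cdkn1b* and *Ccnd1* it ranged from -0.12 to 0.10. The median of other CDK inhibitors was 0.15 with a filter at 2 FPKM.

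The replicate numbers 1 to 3 occur in both groups, and CTR 4 has no partner. Deviations of papillomas with the same number had correlations of -0.19, 0.04 and -0.15. The labels tie these papillomas by number only, and the correlations cannot tell whether they share a litter or a batch. With the replicate block 0 genes passed the adjusted threshold, 505 were higher and 170 lower at an unadjusted p under 0.05, the *Cdkn1a* to *Cdkn1b* difference was 0.033 and the median of other CDK inhibitors 0.21. Apart from the 505 and 170, these values equal those without CTR 4, which the block leaves without a partner, and so do the differences of the 10 genes. The causes of the other shifts were not tested. With 3 TG papillomas, the intervals of the 10 genes leave room for changes that these data could not detect.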
